A study of Mus musculus with 2 samples.

Results

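Mir221 and Mir222 are a pair of microRNA hairpins encoded side by side on the X chromosome, and they were followed here by their counts in whole mouse heart. They were selected by gene symbol in the GENCODE M21 annotation, matched to the Ensembl gene identifiers ENSMUSG00000065422.1 and ENSMUSG00000065471.1, and are 2 of the 2202 annotated hairpins. The hearts came from 2 female B6CASTF1/J mice aged 25 days, F1 hybrids between C57BL/6J and CAST/EiJ, with no treatment or genetic change named in the labels. The mice form 1 group, as biological replicates 1 and 2, so the design implies a description of this tissue and a comparison of its 2 libraries. The age is that of the age field, since a free-text label gives the same number in months. The labels number the animals separately but give both the same donor identifier, so the spread between libraries is a spread between animals only as far as those labels hold. The tissue is bulk heart, and in such samples fewer cells of a type and less RNA per cell cannot be told apart.

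A microRNA is cut from a hairpin precursor and guides silencing proteins to messenger RNAs that pair with its seed, a short stretch near its 5′ end. miR-221 and miR-222 are known from blood vessels, where endothelial cells and smooth muscle cells of the vessel wall both make them. In textbook accounts they limit vessel growth in endothelium through the stem cell factor receptor Kit, and favour proliferation of smooth muscle through the cell cycle inhibitor Cdkn1b.

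The mature sequences are shown because the shared seed is what makes the pair a family. They are given 5′ to 3′ from RefSeq (GRCm38.p6), where both members were matched, with bases 2 to 8, the seed, in capitals.
miR-221-3p: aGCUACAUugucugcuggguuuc
miR-222-3p: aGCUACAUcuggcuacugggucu
miR-221-5p: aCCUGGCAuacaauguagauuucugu
The 3p arms are identical over their first 8 bases. Compared position by position from the 5′ end without gaps, 11 of 23 bases were the same. The 12 differences began at position 9 with U9C, written as the base of miR-221-3p, the position and the base of miR-222-3p. Bases shared at shifted positions, as in the run CUGGGU of both arms, can count as differences here. Among 1738 mature microRNAs in the RefSeq table, 3 carried the seed GCUACAU, namely this pair and miR-1928. Mir1928, on chromosome 1, had 0 counts in both libraries, which allows up to 1.46 CPM in replicate 1 and 1.13 CPM in replicate 2, where CPM is a count per 1000000 hairpin counts of the library, from counting error. The seed of miR-221-5p, CCUGGCA, was found in 1 mature microRNA, itself.

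The hairpins themselves are shown because the tables count reads per hairpin and do not separate the arms. Capitals mark the mature arms listed in RefSeq.
Mir221: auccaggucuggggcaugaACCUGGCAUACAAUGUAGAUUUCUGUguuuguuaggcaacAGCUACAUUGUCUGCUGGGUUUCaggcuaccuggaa
Mir222: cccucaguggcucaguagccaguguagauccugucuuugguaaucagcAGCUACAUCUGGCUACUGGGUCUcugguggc
Both lie on the minus strand of mm10, Mir221 at chrX:19146294-19146388 (95 nt) and Mir222 at chrX:19146893-19146971 (79 nt). The gap between them is 504 bp, and on this strand Mir222 comes first in the direction of transcription. No other GENCODE gene overlaps either hairpin, so neither is exonic or intronic in that annotation. The nearest annotated gene is Gm14636, a processed transcript on the same strand, 10010 bp from Mir222 on the upstream side. The nearest protein-coding gene is Tex13c3, 332449 bp away on that side. GC content was 47.4% in Mir221 and 54.4% in Mir222. The predicted minimum free energy of folding (RNAfold) was -42.8 kcal/mol for Mir221 and -40.7 kcal/mol for Mir222. Per base these were -0.45 and -0.52, both below the median of -0.41 over 997 distinct RefSeq hairpins, where a lower value is a more stable predicted fold.

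Reads that match several places entered no hairpin count in these tables, so shared sequence matters for how far a count can be trusted. The longest exact run shared by Mir221 and Mir222 was 9 nt. Mir221 shared at most 13 nt with any other hairpin and Mir222 at most 12 nt. No 18 nt stretch of either 3p arm occurred in a transcript of another GENCODE gene, on either strand. The remaining genome was not searched. All counts of the pair lay on the strand of the hairpin, with 0 on the opposite strand at both hairpins in both libraries.

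In read counts, Mir221 was a moderately abundant hairpin of these hearts, and Mir222 was far lower. How closely the read counts of different hairpins follow numbers of molecules was not tested. Mir221 had 1636 counts of 2050498 hairpin counts in replicate 1 and 3658 of 2661090 in replicate 2. That is 798 CPM (95% Wilson interval 760 to 837) and 1375 CPM (1331 to 1420), a mean of 1086 ± 408 CPM (SD, n = 2). Replicate 2 was the higher library, and the intervals did not overlap. Molecules copied by PCR could not be recognised, so all intervals and floors given here reflect counting error alone.

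Mir222, the upstream member, had 83 counts in replicate 1 and 166 in replicate 2. Its CPM was 40.5 (32.7 to 50.2) and 62.4 (53.6 to 72.6), a mean of 51.4 ± 15.5 CPM (SD, n = 2). Replicate 2 was again higher, without overlap of the intervals. Ordered by mean CPM over all hairpins, Mir221 stood at position 62 and Mir222 at position 172. Both members were among the 288 of 2202 hairpins that reached 10 counts in each library.

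**Figure D1:**
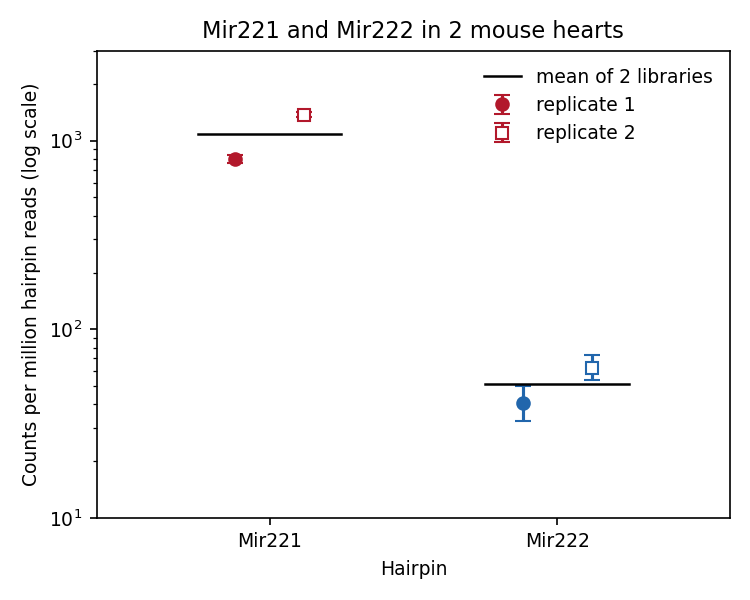
CPM (log scale) of Mir221 and Mir222 in each of the 2 heart libraries, with bars for the 95% Wilson interval of each library and a line for the mean. Mir221 lies at 798 and 1375 CPM and Mir222 at 40.5 and 62.4 CPM, and replicate 2 is the higher library for both.

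The split between the 2 members was nearly the same in both hearts. Mir221 supplied 95.2% of the pair's counts in replicate 1 and 95.7% in replicate 2, with a mean of 95.4% ± 0.345 (SD, n = 2). The 95% exact binomial intervals, 94.05 to 96.14 and 94.96 to 96.28, overlapped. Mir221 exceeded Mir222 by 19.7-fold in replicate 1 and 22.04-fold in replicate 2. Per base of hairpin, where Mir221 had 17.2 and 38.5 counts and Mir222 1.05 and 2.10, the ratios were 16.4 and 18.3. The pair together held 0.0838% of hairpin counts in replicate 1 and 0.144% in replicate 2, with 95% Wilson intervals of 0.0800 to 0.0879 and 0.139 to 0.148.

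To place this imbalance, the pair was set beside every other pair of neighbouring hairpins on one strand whose starts lie within 1000 bp and whose members had at least 10 counts in both libraries. There were 50 such pairs besides Mir221 and Mir222. In the 50, by geometric means of the 2 libraries, the higher member exceeded the lower by 1.16-fold to 296-fold, with a median of 5.66-fold. The 1.16-fold was for Mirlet7e and Mir125a, whose order differed between libraries (log2 ratios -0.68 and 0.26). Mir221 exceeded Mir222 by 20.8-fold on this measure. The pair stood at position 12 of 51 by this measure and at position 16 of 51 per base of hairpin. Just above it were Mir29b-2 and Mir29c, of the matrix-regulating miR-29 family, at 24.4-fold. Just below it were Mir191 and Mir425 at 19.6-fold. In 7 of the 11 pairs with a larger imbalance, the lower member of replicate 1 shared 18 nt or more with another hairpin, 25 nt for Mir29b-1 and 23 nt for Mirlet7c-1. The same held in 9 of the 39 pairs with a smaller imbalance. For Mir222, the lower member here, the longest such run was 12 nt. The higher members were not searched as a set, and Mir27b, which was higher than Mir24-1, shared 20 nt with Mir27a. What shared sequence did to the counts of these pairs was not tested. Among the other 4 pairs were Mir212 and Mir132, an activity-regulated pair, at 27.5-fold.

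The ratio of 2 neighbours within 1 library does not depend on library scaling, so its difference between libraries could be compared across pairs. For Mir221 and Mir222 the log2 ratio of the members differed by 0.16 between the libraries. With 83 and 166 counts of Mir222, and overlapping intervals for the split, this difference was not separated from counting error. In the other 50 pairs this difference had a median of 0.61 and ran from 0.03, in Mir409 and Mir369, to 2.69, in Mir381 and Mir487b. A smaller difference was found in 6 of the 50. Members could have as few as 10 counts, so counting error differs between pairs. Several pairs share a hairpin or a cluster, and these values are a description with no test.

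**Figure D2:**
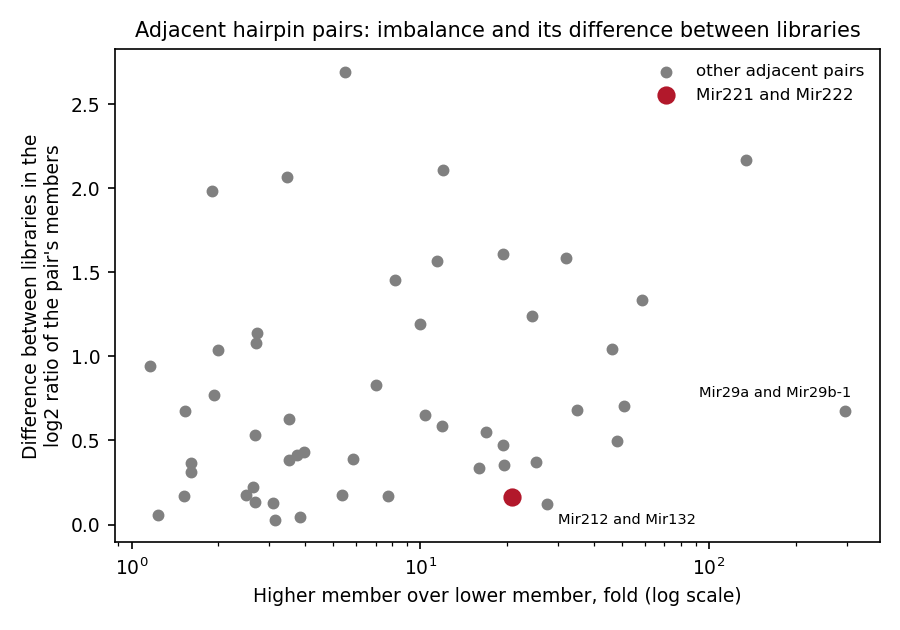
Each point is a pair of neighbouring hairpins on one strand. The x axis (log scale) is the fold of the higher over the lower member by geometric means of the 2 libraries. The y axis is the difference between the 2 libraries in the pair's log2 ratio. Mir221 and Mir222, in red, lie at 20.8-fold and 0.16, and 6 of the 50 other pairs had a smaller difference between libraries.

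Both members were higher in replicate 2 than in replicate 1. On TMM-scaled CPM plus 1, the log2 ratio of replicate 2 over replicate 1 was 1.01 for Mir221 (adjusted exact two-sided binomial p = 8.46e-132) and 0.84 for Mir222 (adjusted exact two-sided binomial p = 1.95e-05). The fold on that scale was 2.02 for Mir221 and 1.79 for Mir222, and 1.72 and 1.54 on unscaled CPM. The p-values, with Benjamini-Hochberg adjustment over 326 hairpins, describe the reads of these libraries only. With 1 library from each heart, no difference between animals could be tested. The same test called 62.6% of the 326 hairpins, and of the 326, 36.2% were higher in replicate 2 and 26.4% lower, so that a call was the common outcome. By size, 44 of the 326 hairpins had a higher log2 ratio than Mir221 and 54 a higher one than Mir222.

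The median log2 ratio of all tested hairpins was 0.09 with TMM scaling and -0.14 with scaling by total count. Of the hairpins called, 57.8% were higher in replicate 2 with TMM and 39.4% with total count. Taken relative to that median, Mir221 stood 0.93 above it with TMM and 0.92 with total count, and Mir222 stood 0.75 above it with both. Another scaling shifts all log2 ratios and their median nearly alike, so these differences agree between scalings by construction.

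**Figure D3:**
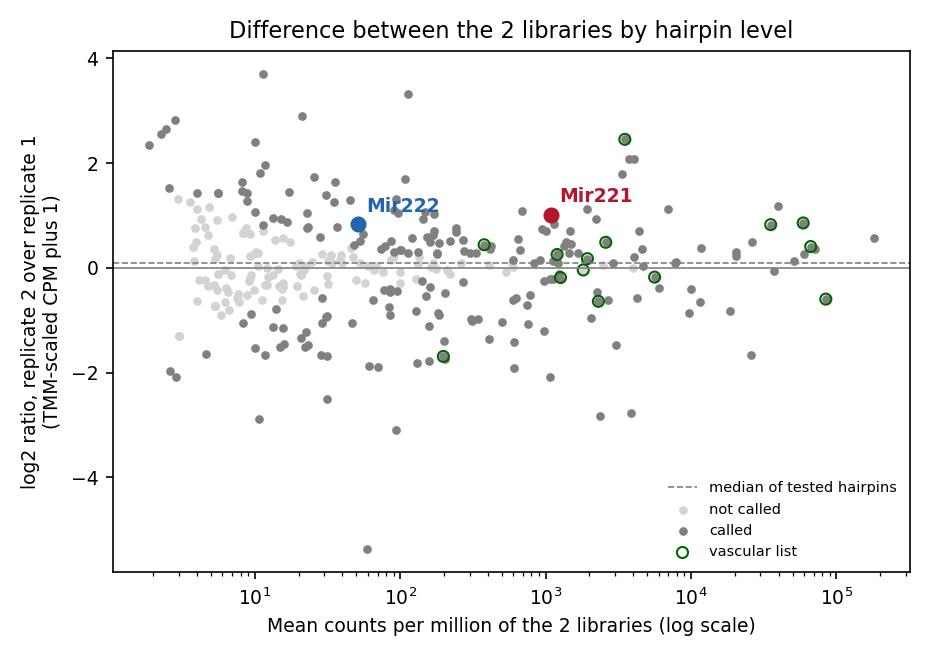
Log2 ratio of replicate 2 over replicate 1 (TMM-scaled CPM plus 1) against mean CPM (log scale) for 326 hairpins, with dark points for those called by the exact binomial test, light points for the rest and green rings for the vascular list. Mir221 (1.01) and Mir222 (0.84) lie above the dashed median of 0.09, with 44 and 54 hairpins higher than them.

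Against other microRNAs linked to vessels, Mir221 sat in the lower part of the range and Mir222 below nearly all. The list held 16 hairpins, of which Mir126b (1 and 0 counts) and Mir145b (0 and 3) were too low to test. Mir126a, the endothelial microRNA of the Egfl7 gene, had 108082 and 60950 CPM. Per base of hairpin it exceeded Mir221 by 176-fold in replicate 1 and 57.7-fold in replicate 2. Mir143, a microRNA of smooth muscle, had 28118 and 42505 CPM and exceeded Mir221 per base by 53.1-fold and 46.6-fold.

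Other members of the list lay closer to the pair. Mir145a, the smooth muscle partner of Mir143, had 1236 and 5782 CPM, per base 2.10-fold and 5.71-fold above Mir221. Mir17, of the angiogenesis-linked miR-17-92 cluster, had 1190 and 1212 CPM, within the range that Mir221 spanned. Mir132, which is made in vessels under growth factor stimulation, had 350 and 406 CPM, and Mir221 exceeded it per base by 1.58-fold and 2.35-fold. Mir210, the hypoxia microRNA, had 314 and 82.3 CPM. Per base, Mir222 was at 0.179 of Mir210 in replicate 1 and at 1.06 of it in replicate 2. In CPM, Mir222 (40.5 and 62.4) was below Mir210 in both hearts, so the order changed only on the per-base scale.

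The vascular hairpins did not move together between the libraries. Of 14 tested, 8 were higher in replicate 2, 5 were lower and 1 was not called (exact binomial test with TMM), beside 36.2% higher and 26.4% lower among all hairpins. Their median log2 ratio was 0.22, against 0.09 over all hairpins tested. With scaling by total count, 76 of all 326 hairpins were higher and 117 lower, with a median of -0.14. Of the vascular hairpins, 6 were higher and 6 lower by that scaling, with a median of -0.01. The higher ones with each of the TMM, total count and DESeq2 scalings were Mir145a (2.46), Mir23a (0.86), Mir143 (0.83), Mir130a (0.49), Mir132 (0.44) and Mir23b (0.41). The lower ones with all 3 were Mir210 (-1.69), Mir155 (-0.64), Mir126a (-0.60), Mir27a (-0.18) and Mir27b (-0.18), where the values are TMM log2 ratios.

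**Figure D4:**
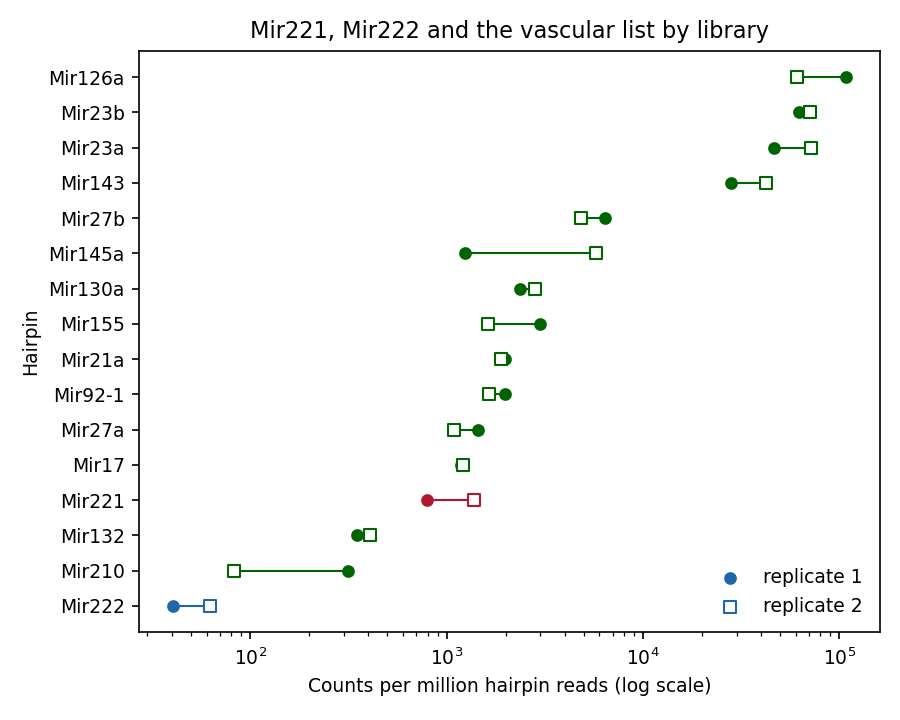
CPM (log scale) in replicate 1 (filled circles) and replicate 2 (open squares) for Mir221 (red), Mir222 (blue) and the vascular hairpins above 0 in both libraries (green). Mir221 and Mir222 are higher in replicate 2, as is Mir143 (28118 and 42505 CPM), while Mir126a is lower (108082 and 60950 CPM).

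Markers of the cell types that could carry the pair moved in different directions, and their calls are to be read beside the 36.2% of all hairpins called higher and the 26.4% called lower by the same test. The smooth muscle and pericyte markers Mir143, Mir145a and Mir145b summed to 2.94% of hairpin counts in replicate 1 and 4.83% in replicate 2, with 2 of 3 called higher and Mir145b near 0. The endothelial markers Mir126a and Mir126b summed to 10.8% and 6.10%, with 1 of 2 called lower and Mir126b near 0. Among leukocyte markers, 3 of 4 were higher (Mir150, Mir223 and Mir142) and Mir155 was lower, with sums of 0.465% in both libraries.

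Markers of the remaining cell types gave mixed calls, to be read beside the same 36.2% higher and 26.4% lower among all hairpins tested. The cardiomyocyte markers Mir208a, Mir208b and Mir499 summed to 0.444% and 0.829%, with 1 of 3 higher and 1 lower. All 3 erythroid markers (Mir486, Mir451a and Mir144) were lower, with sums of 0.178% and 0.0869%. Of the fibroblast markers, Mir214 was lower, Mir199b was not called, Mir199a-2 was under 10 counts and Mir199a-1 was at 0, with sums of 0.427% and 0.0521%. Mir214 held 8717 of the 8755 fibroblast marker counts in replicate 1 and 1353 of 1387 in replicate 2. Reads that match several places entered no count, and their part in the low Mir199 counts was not tested. The part of these cell types in the difference of Mir221 and Mir222 was not tested.

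On the X chromosome, Mir221 stood at position 8 and Mir222 at position 20 of 142 hairpins by mean CPM. The 3 highest others were Mir652 with 8196 and 7579 CPM, Mirlet7f-2 with 4998 and 4388 CPM and Mir322, of the miR-15 seed family, with 3675 and 5106 CPM. Of the 140 others, 90 had 0 counts in both libraries and 29 were tested. With TMM, 14 of the 29 were higher in replicate 2, 3 were lower and 12 were not called, beside 36.2% and 26.4% of all hairpins. With total count, 10 were higher and 7 lower, beside 76 higher and 117 lower of all 326 hairpins. The median log2 ratio of the 29 was 0.21 with TMM and -0.02 with total count, below the values of Mir221 and Mir222 with either scaling. Single X hairpins stood above Mir221 with TMM, namely Mir351 (1.79), Mir201 (1.13, not called), Mir450b (1.10), Mir547 (1.05) and Mir223 (1.03). The rest of the 29 lay below Mir221.

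The hairpins whose levels were most like each member were found by distance in log2(CPM + 1) over the 2 libraries, among the 287 other hairpins with at least 10 counts in both. With 2 libraries this measures a like level more than a like pattern. Closest to Mir221 were Mir107 (913 and 1384 CPM, distance 0.20), Mir10a (837 and 1166 CPM, 0.25) and Mir532 (772 and 1105 CPM, 0.32), followed by Mir17 and Mir455. Their TMM log2 ratios were 0.83, 0.71 and 0.75, with 0.26 for Mir17 and 0.12 for Mir455, which was -0.11 with total count. The distance uses both libraries, so the choice of these hairpins already favours ratios like that of Mir221. Closest to Mir222 were Mir467c (47.3 and 63.5 CPM, 0.22), Mir1983 (47.8 and 58.6 CPM, 0.25), Mir134, Mir32 and Mir421. The ranges of the 2 libraries of each of these 10 hairpins overlapped that of the member it was closest to, which the choice by distance favours. Library by library, Mir107 lay above Mir221 in both, Mir532 below Mir221 in both and Mir467c above Mir222 in both. The others lay above their member in replicate 1 and below it in replicate 2. Per base of hairpin, Mir221 had 8.40 and 14.5 CPM and Mir107 10.5 and 15.9 CPM, while Mir222 had 0.512 and 0.790 CPM and Mir467c 0.488 and 0.655 CPM.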

How the data were processed

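MicroRNA-seq was measured in 2 heart libraries. The deposited tables hold raw read counts per annotated hairpin on mm10 with GENCODE M21, per the file headers of the deposited notes. The aligner and counter are not given in the sources used here. Counts on the strand of the hairpin were used. All 2202 identifiers matched GENCODE M21. Only hairpin rows entered library totals. Of all reads, 38.5% and 41.6% matched several places, 14.1% and 11.5% were unmapped and 6.48% and 5.64% lay in no hairpin, in replicates 1 and 2. A floor of 3 counts equals 1.46 and 1.13 CPM.

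Hairpins reaching 10 counts in either library were compared by an exact binomial test against effective library sizes (TMM, edgeR 4.0.16, R 4.3.3; scipy 1.17.1), with Benjamini-Hochberg adjustment at 0.05, and the script was tested on simulated data. Log2 ratios add a pseudocount of 1 CPM. RNAfold 2.7.2 gave folding energies. Alternatives were the unstranded column, other denominators, count minimums and pseudocounts, DESeq2 1.42.0 size factors, total count scaling and leaving out each replicate. The members and lists were chosen with earlier results of these data known. Named hairpins are the members, the vascular and marker lists, the 5 closest in level to each member, the 3 highest others on the X chromosome and the adjacent pairs next to the members in imbalance. Other adjacent pairs, and single hairpins within them, were named after their values were seen. So were Mir1928, for its seed, and the X chromosome hairpins with a higher log2 ratio than Mir221.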

Additional observations from a re-analysis of the deposited data

Results flagged for a closer look

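Reads that match several places lie outside the hairpin counts and numbered 1925044 in replicate 1 and 2686901 in replicate 2. These are totals of each whole library, not of any hairpin. How many of these reads, if any, came from Mir221 or Mir222 was not tested.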

How the results depend on the processing

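The log2 ratios of Mir221 and Mir222 stayed above 0 and past the test in all 8 alternatives run for each. They ranged from 0.78 to 1.01 for Mir221 (adjusted exact binomial p from 8.46e-132 to 3.08e-78) and from 0.61 to 0.85 for Mir222 (1.95e-05 to 0.00235), with the lowest values under scaling by total count. The number of hairpins called ranged from 165 to 193 in 6 alternatives, against 204. Levels followed the denominator by construction. With the column taken without regard to strand, Mir221 had 1534 CPM, Mir222 72.7 CPM and the pair 0.161% of counts. With all reads as the denominator these values were 447 CPM, 21.2 CPM and 0.0468%, and without the 10 highest hairpins 3576 CPM, 168 CPM and 0.374%. Leaving out 1 replicate gave 798 to 1375 CPM for Mir221, 40.5 to 62.4 CPM for Mir222 and 0.0838% to 0.144% for the pair. The share of Mir221 in the pair stayed between 95.2% and 95.7% in the 3 alternatives run for it. This follows by construction, since the unstranded column held the same counts for the pair. Leaving out 1 replicate returned the share of the other library. The design has 1 group, so no paired analysis was possible because there is no second group to pair. With 83 counts in replicate 1, Mir222 limits the precision of this share.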
